A study of Arabidopsis thaliana with 12 samples.

Results

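ZIP9 (AT4G33020) and MT1C (AT1G07610) are 2 metal-handling genes that were followed across all 12 Arabidopsis thaliana arrays of the study, each through 1 probe set paired with that gene alone. They are 2 of the 13356 genes with a probe set of their own, and they were selected on their measured difference between ceria and water, which was past the threshold and positive for both. That contrast is therefore described here without a test, and the tests below concern titania and other metal genes. All germinants were of the Col-0 ecotype, 12 days old, labelled as seedling tissue, and grown in dishes of 50 seeds on a disc wetted with 2 mL of liquid. The 4 groups were 0.1 mM KCl, titania particles (TiO2) at 500 mg per L, sterilized Millipore water, and ceria particles (CeO2) at 500 mg per L, with 3 arrays each. KCl was the control for titania and water the control for ceria. The labels do not state which liquid the particles were suspended in. They call the KCl and TiO2 arrays biological replicates and the water and CeO2 arrays only replicates, so p-values measure the spread between these arrays.

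ZIP proteins are membrane transporters that bring zinc, iron and related divalent cations into the cytoplasm. In Arabidopsis, ZIP9 is known as a gene of the zinc deficiency response, whose members are switched on by the transcription factors bZIP19 and bZIP23 when zinc is scarce. Metallothioneins are small cysteine-rich proteins that hold copper and zinc through their thiol groups, and MT1C encodes one of the type 1 proteins. One gene thus acts at uptake and the other at chelation inside the cell.

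Values are log2 expression per probe set on the scale of robust multi-array average (RMA). Array medians were 5.69 to 5.74 for the KCl and TiO2 arrays and 5.88 to 5.92 for the water and CeO2 arrays, so levels set across these 2 sets carry the difference in scale. The lowest value of an array was 2.30 to 2.51, below every value of both genes. Over the 4 groups the pooled standard deviation (SD) was 0.16 for ZIP9 and 0.21 for MT1C, and 74.1% and 91.4% of all probe sets had a smaller one. With 3 arrays a group, their number limits the precision.

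ZIP9 was lowest in water. Its 3 water arrays read 4.97, 5.14 and 5.18 log2, and its 3 CeO2 arrays read 6.01, 5.87 and 6.15. The KCl arrays read 5.81, 5.95 and 5.78, and the TiO2 arrays 5.53, 5.48 and 5.95. Every CeO2 array thus lay above every water array, whereas the KCl and TiO2 arrays overlapped through TiO2 replicate 3, which was level with the highest KCl array.

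MT1C was highest in CeO2. Its CeO2 arrays read 11.10, 10.80 and 11.09 log2 against 10.45, 10.39 and 10.45 in water. The KCl arrays read 10.10, 10.28 and 10.35, and the TiO2 arrays 9.97, 9.97 and 10.59. Again no CeO2 array reached down to the water arrays, and again TiO2 replicate 3 stood above the other two TiO2 arrays, here above all KCl arrays as well.

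**Figure D1:**
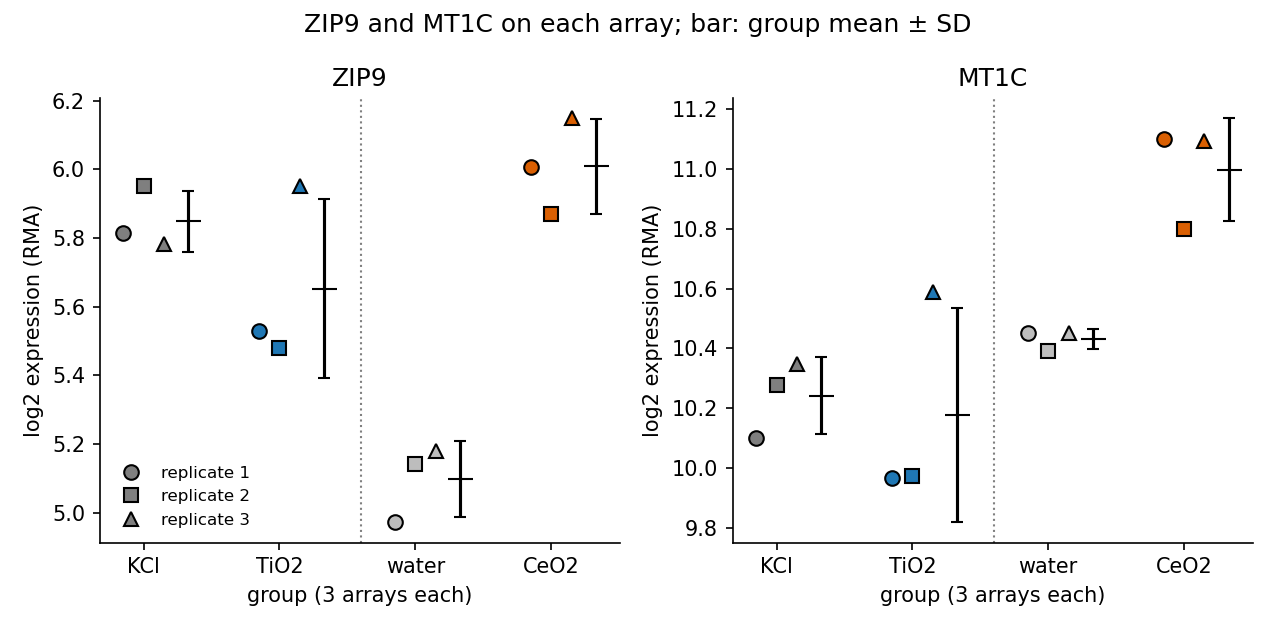
Log2 expression (vertical axis, RMA scale) of ZIP9 and MT1C on each array by group (horizontal axis). Symbols mark replicates, bars the group mean ± SD (n = 3), and the dotted line parts the arrays of the titania experiment from those of the ceria experiment. ZIP9 lies at 4.97 to 5.18 in water and at 5.87 to 6.15 in CeO2, and the TiO2 group has the widest spread for both genes.

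With ceria, both genes were higher than in water. The ZIP9 mean was 5.10 ± 0.11 log2 in water and 6.01 ± 0.14 in CeO2 (SD, n = 3), a difference of 0.91 ± 0.12 log2 (standard error, SE) or 1.88-fold. The MT1C mean was 10.43 ± 0.03 in water and 11.00 ± 0.17 in CeO2, a difference of 0.57 ± 0.14 or 1.48-fold. The transporter gene thus differed by more than the metallothionein gene. In RNA of germinants, a change in RNA per cell and a change in the share of cells that hold it cannot be told apart.

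These differences chose the genes and support nothing further. Of all 22746 probe sets, 1.26% were past the threshold and higher in CeO2, an adjusted p under 0.05, and on 8.26% all 3 CeO2 arrays lay above all 3 water arrays. Among the 286 probe sets past the threshold and higher, ZIP9 was number 81 by size of difference and MT1C number 177. By strength of evidence MT1C was number 284 of the 286, so it stood near the edge of the threshold. That rank uses the spread of all 4 groups, with an SE of 0.143 log2 for MT1C. With only the water and CeO2 arrays in the fit the SE was 0.097. Of named probe sets at that edge, AT2G40460 and AT4G22410 lay inside it with differences of 0.47 and 0.37 log2, and AT5G48175 lay outside it with 0.42. With any 1 of the 6 arrays left out, the difference was 0.84 to 0.98 log2 for ZIP9 and 0.52 to 0.67 for MT1C.

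The titania arrays and their KCl controls share in the spread of the joint fit, and through it in the ceria threshold. The ceria difference was taken as the contrast that chose the genes. Earlier results of these data were known at that choice, and whether the titania difference played a part in it was not tested. Neither ZIP9 nor MT1C passed the test of TiO2 against KCl. Thus 0 of 2 were past the threshold, where 10.6% of all probe sets were. ZIP9 had a mean of 5.85 ± 0.09 log2 in KCl and 5.65 ± 0.26 in TiO2, a difference of −0.20 ± 0.12 (limma adjusted p = 0.378). The 95% interval of that difference ran from −0.45 to 0.06 log2, or from 0.731 to 1.04 times the KCl level. The arrays thus leave room for a decrease of ZIP9 in titania to 0.731 times its control.

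MT1C had a mean of 10.24 ± 0.13 log2 in KCl and 10.18 ± 0.36 in TiO2, a difference of −0.06 ± 0.14 (limma adjusted p = 0.861). The 95% interval ran from −0.37 to 0.24 log2, or from 0.775 to 1.18 times the KCl level. In size, 68.2% of all probe sets differed more between TiO2 and KCl than MT1C did, and 29.2% differed more than ZIP9 did.

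TiO2 replicate 3 weighed on both titania values. It lay 0.30 log2 above the TiO2 mean for ZIP9 and 0.41 above it for MT1C, the largest deviation of any array from its group mean for either gene. Without it the difference was −0.35 ± 0.11 for ZIP9 (limma adjusted p = 0.0644) and −0.27 ± 0.11 for MT1C (limma adjusted p = 0.171), still on the same side of the threshold. Without TiO2 replicate 1 or 2 the MT1C difference turned positive, at 0.04 log2 in either case. Over the 12 alternatives the adjusted p was 0.0644 to 0.704 for ZIP9 and 0.171 to 0.982 for MT1C.

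**Figure D2:**
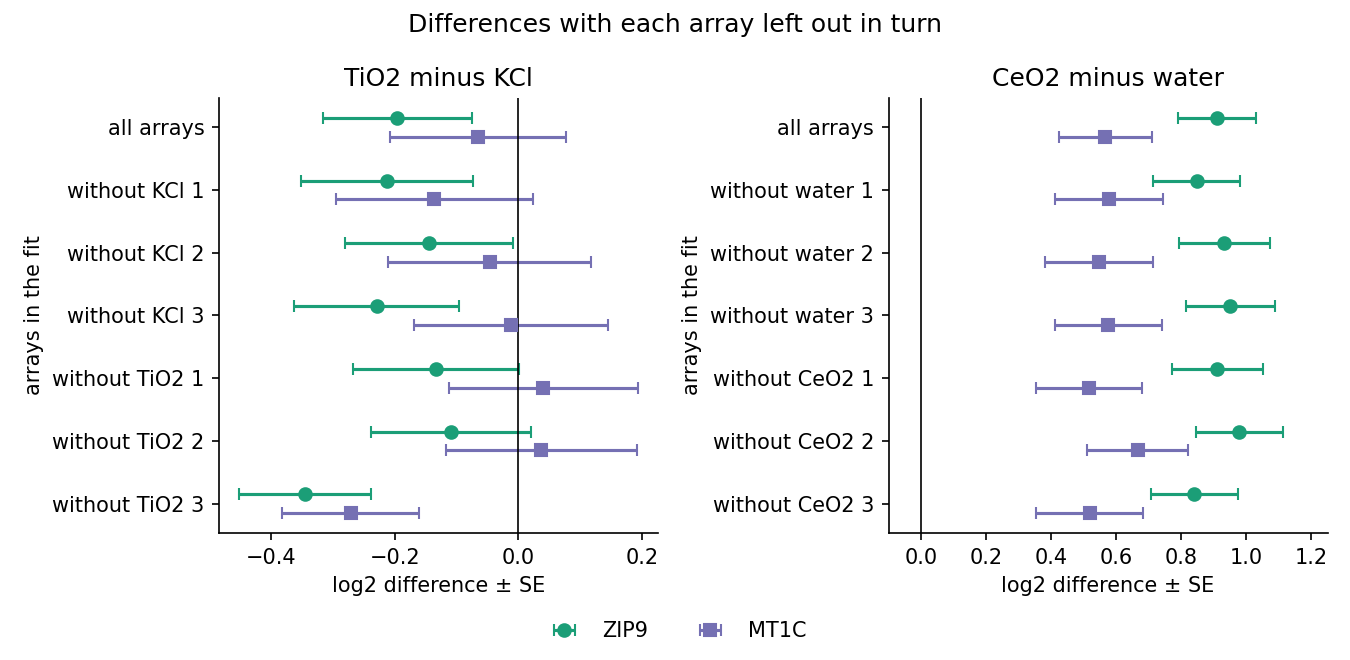
Log2 difference ± SE (horizontal axis) of ZIP9 (circles) and MT1C (squares) for TiO2 minus KCl and CeO2 minus water, from all arrays and with each compared array left out in turn (vertical axis). The ceria values stay between 0.52 and 0.98, and the titania values are lowest without TiO2 replicate 3, at −0.35 and −0.27.

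Set side by side, the ceria difference of ZIP9 was 0.91 log2 and its titania difference −0.20, which leaves 1.11 ± 0.17 between them. For MT1C the values were 0.57 and −0.06, with 0.63 ± 0.20 between them. These gaps contain the contrast that chose the genes and were not tested. Particle, control liquid and set of arrays also go together in this design and cannot be told apart.

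Between the controls, ZIP9 was 0.75 log2 higher in KCl than in water, whereas MT1C was 0.19 lower in KCl. These values share the water arrays with the ceria comparison, cross the 2 sets of arrays and were not tested. Of all probe sets, 12.0% differed more between KCl and water than ZIP9 did and 61.3% more than MT1C did. In the order of the group means, ZIP9 ran CeO2, KCl, TiO2 and water as deposited. Only the step from TiO2 down to water, of 0.55 log2, was free of overlap between neighbouring groups. After a second quantile normalization of the 12 arrays, or with each array centred on its median, KCl and CeO2 changed places at the top with 0.01 log2 between them, and water stayed lowest by 0.72 and 0.74.

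MT1C ran CeO2, water, KCl and TiO2 under all 3 scalings. The step from CeO2 down to water was 0.57 log2 under each and free of overlap. The step from water to KCl, 0.19 as deposited and free of overlap, was 0.30 after the second quantile normalization and 0.01 with overlap after median centring. KCl and TiO2 overlapped under all 3. The steps between CeO2 and water contain the contrast that chose the genes and are a description only.

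Other genes of metal uptake, chelation and storage were taken from 7 lists with 84 members, of which 10 had a probe set of their own, ZIP9 and MT1C included. In CeO2 against water 0 of the other 8 passed limma's test, where 2.42% of all probe sets did. At an unadjusted p under 0.05 it was also 0 of the 8, where 9.8% of all probe sets were below that value. In TiO2 against KCl 2 of the 8 fell and 0 rose, where 5.86% of all probe sets were called lower and 4.72% higher. The median difference of the 8 was −0.01 log2 for ceria and −0.10 for titania, beside −0.01 and 0.02 over all probe sets. The genes of these lists that passed no test are named below although their values had been seen.

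Of the 16 transporters of the ZIP family, ZIP6 was the only other one with a probe set of its own. It read 5.57 to 5.82 log2 in water and 5.71 to 5.89 in CeO2, with a difference of 0.10 ± 0.10 (limma adjusted p = 0.893). It read 5.78 to 6.10 in KCl and 5.60 to 5.84 in TiO2, with a difference of −0.25 ± 0.10 (limma adjusted p = 0.155). The ZIP6 groups thus overlapped in both comparisons. No other of the 7 metallothionein genes could be read alone. MT1A, a closely similar type 1 gene, is the direct neighbour of MT1C in the RefSeq gene table, and whether its RNA adds to the MT1C signal was not tested.

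Of the 7 zinc deficiency regulators and nicotianamine synthases, only bZIP19 and BZIP24 had a probe set of their own, and bZIP23 could not be read alone. bZIP19, which with bZIP23 activates zinc uptake genes in Arabidopsis, had means of 8.30 ± 0.03 log2 in water and 8.26 ± 0.06 in CeO2, a difference of −0.04 ± 0.09 (limma adjusted p = 0.979). In titania its difference was −0.07 ± 0.09 (limma adjusted p = 0.736). BZIP24, of the same group of factors and known from salt stress, read 3.19 to 3.50 log2 on all 12 arrays, near the floor, with differences of 0.01 and 0.03. None of the nicotianamine synthase genes of that list could be read alone.

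Of the zinc export and storage genes, MTPA1, of the cation diffusion family, read 2.85 to 3.34 log2 throughout, also near the floor. AT2G04620, listed as MTP12, which in Arabidopsis carries zinc into the Golgi apparatus together with MTP5, differed by −0.09 ± 0.11 in ceria (limma adjusted p = 0.922) and by 0.06 ± 0.11 in titania (limma adjusted p = 0.817). The other 12 of the 14 genes in this list, the zinc pumps HMA2 and HMA4 among them, could not be read alone, nor could any of the 6 phytochelatin genes.

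MTP11, a manganese transporter of the secretory pathway, was the metal gene that fell furthest in titania. Its KCl arrays read 10.04, 9.87 and 9.75 log2 and its TiO2 arrays 9.19, 8.96 and 8.73, with no overlap, as on 11.3% of all probe sets. It fell by 0.93 ± 0.12 log2, a 1.90-fold decrease (limma adjusted p = 7.57e-05). In ceria it differed by 0.23 ± 0.12 (limma adjusted p = 0.577), and the difference between the particle effects was 1.15 ± 0.16 (limma adjusted p = 0.000305), a test that 8.06% of all probe sets passed.

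AT3G58060, listed as MTP8, a vacuolar manganese and iron transporter, differed by −0.12 ± 0.09 in titania (limma adjusted p = 0.492) and −0.18 ± 0.09 in ceria (limma adjusted p = 0.549). CCS, the chaperone that delivers copper to superoxide dismutase, fell by 0.34 ± 0.10 in titania (limma adjusted p = 0.0396). That call was lost without KCl replicate 1 or 2, without TiO2 replicate 1 or 3, after a second quantile normalization, and when the fit held the KCl and TiO2 arrays alone, and the adjusted p ran from 0.0175 to 0.148 over its alternatives. In ceria CCS differed by −0.19 ± 0.10 (limma adjusted p = 0.608).

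**Figure D3:**
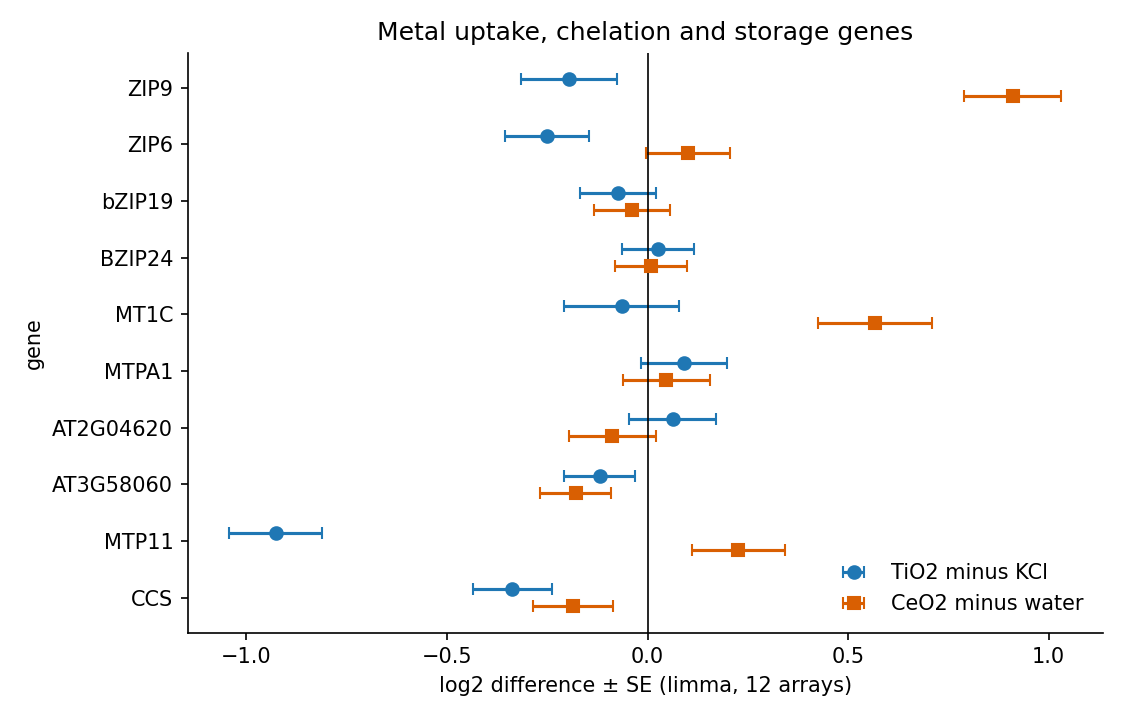
Log2 difference ± SE (horizontal axis, limma over 12 arrays) of the 10 metal genes with a probe set of their own (vertical axis), with circles for TiO2 minus KCl and squares for CeO2 minus water. ZIP9 and MT1C lie at 0.91 and 0.57 for ceria and were chosen for it, and MTP11 lies at −0.93 for titania.

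Genes that followed ZIP9 across the arrays were sought by Pearson's r over the 12 arrays, after the mean of its own set of 6 arrays was taken from each value, among the 13512 other probe sets of 1 gene. The 5 most like it were AT4G30320 at r = 0.97, AT5G61550 and AT2G41970 at 0.95, AT2G39040 at 0.94 and tny at 0.94. The last, TINY, is an AP2-type transcription factor of Arabidopsis, and the loci carry no other name in the tables used. All 5 were higher in CeO2 than in water, by 0.58 to 1.44 log2, and differed by −0.10 to −0.04 between TiO2 and KCl. The ceria contrast enters this measure, so genes with a ceria difference are favoured by construction.

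Those most like MT1C were AT3G60660 at r = 0.93, AT2G29620 at 0.93, ZIP9 itself at 0.90, ADPG1 at 0.90 and AT5G38700 at 0.90. ADPG1 encodes a polygalacturonase that loosens pectin where organs open or drop, and its group means of 2.90 to 3.32 log2 lie near the floor. So do those of AT2G29620, at 3.12 to 3.43, and those of AT3G60660 were also low, at 3.92 to 4.50. MT1C was in turn number 17 among the genes most like ZIP9. With uncentred values, r between ZIP9 and MT1C was 0.44 and MT1C was number 926 for ZIP9, and 1 of the 5 genes stayed for ZIP9 (AT2G39040) and 2 for MT1C (ADPG1 and AT5G38700). The 12 points share 4 groups and 2 sets of arrays, so r is given as a description only.

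Within groups, where the ceria contrast plays no part, r between the deviations of ZIP9 and MT1C from their group means was 0.82 over the 12 arrays. Without TiO2 replicate 3 it was 0.45 over 11 arrays, and 14.1% of the other probe sets of 1 gene were then more like ZIP9 than MT1C was, against 0.54% with it. The likeness within groups thus rested on TiO2 replicate 3. With set means taken off, r was 0.94 without that array. That value contains the ceria contrast that chose the genes, so it is a description only.

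**Figure D4:**
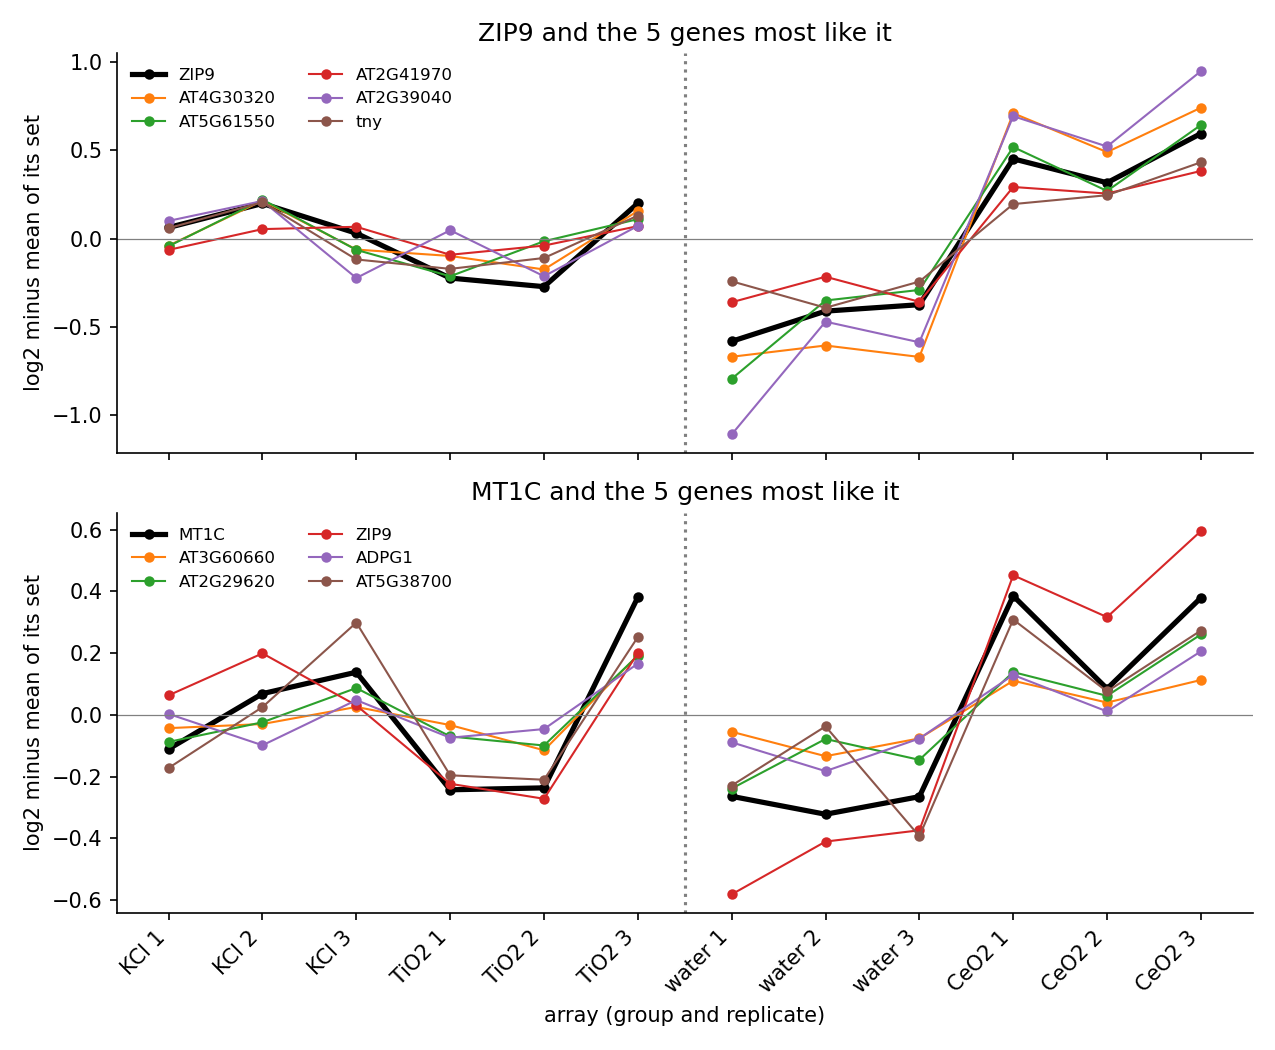
Log2 expression minus the mean of its set of 6 arrays (vertical axis) for ZIP9 (top) and MT1C (bottom), in black, and the 5 genes most like each, in colour, on the 12 arrays (horizontal axis). Lines only link the points of a gene, and the dotted line parts the 2 sets. Water arrays lie below and CeO2 arrays above 0 for ZIP9 and MT1C, and TiO2 replicate 3 lies above the other TiO2 arrays.

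Markers of other cell types were read beside these results, and their part in them was not tested. The marker lists were chosen with earlier results of these data known, so calls among the markers are a description only. Of 6 root hair markers 2 had a probe set of their own, the root hair expansins EXPA7 and EXPA18, and both rose in CeO2, by 0.96 ± 0.135 and 1.44 ± 0.12 log2 (limma adjusted p = 0.000352 and 2.12e-06), where 1.26% of all probe sets were called higher. Their summed level, as log2, was 8.36 to 8.61 in water, 9.50 to 9.94 in CeO2, 9.19 to 9.50 in KCl and 9.51 to 9.66 in TiO2. Water was lowest for these root hair genes and for ZIP9, which was chosen on its difference between ceria and water. Water was not lowest for MT1C, with means of 10.43 log2 in water, 10.24 in KCl and 10.18 in TiO2. These orders cross the 2 sets of arrays, which differ in scale. In TiO2 against KCl, EXPA7 and EXPA18 differed by 0.34 and 0.07 log2 (limma adjusted p = 0.129 and 0.823), and ZIP9 by −0.20. Whether the root hair genes and ZIP9 are linked was not tested.

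Of 6 markers of the ageing leaf only WRKY53, a regulator of senescence and defence, could be read alone. It was 4.16 to 4.39 log2 in water and 3.41 to 3.62 in CeO2, near the floor, and fell by 0.74 ± 0.10 (limma adjusted p = 0.000241), where 1.16% of all probe sets were called lower. It was 3.47 to 3.54 in KCl and 3.73 to 4.01 in TiO2. Of 6 green leaf markers 2 were read, LHCB4.2 and PSAE-1, which bind chlorophyll or serve photosystem I, and their summed level was 13.84 to 13.90 in water and 13.87 to 13.91 in CeO2. Both fell in TiO2, by 0.35 and 0.34 log2 (limma adjusted p = 0.0257 and 0.0486), where 5.86% of all probe sets were called lower. Their summed level was 14.02 to 14.37 in KCl and 13.75 to 13.89 in TiO2. None of 6 markers of the root endodermis and stele could be read alone.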

How the data were processed

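RNA of germinants was hybridised as biotin-labelled cRNA to Affymetrix arrays, 12 in all. The authors deposited 1 log2 expression value for each probe set and array. RMA, a method that corrects background, equalises distributions and summarises probes, is named in the submitters' processing notes. Its version, the probe definitions and whether all arrays were normalized together are not given in the sources used here. All 22746 probe sets were used, of which 13513 were paired with 1 gene, 503 with several and 8730 with none by the probe annotation. Names were updated through the RefSeq gene table of assembly TAIR10.1.

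Differences were fitted with limma 3.58.1 in R 4.3.3, by estimating the 4 group means jointly, with empirical Bayes moderation. Tests were two-sided, with Benjamini-Hochberg adjustment over all probe sets and a threshold of 0.05. Residual degrees of freedom were 8, with 7.63 from the prior, and the median SE of a group difference was 0.106 log2. The fit was tested on simulated data. The 2 genes and the lists were chosen with earlier results of these data known. A gene was read through its brightest probe set paired with it alone.

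Named were ZIP9, MT1C, all measured genes of the ZIP and metallothionein lists, members of other metal lists past the threshold, up to 3 markers per list past it, and the 5 genes most like ZIP9 and MT1C. The other measured metal genes (bZIP19, BZIP24, MTPA1, AT2G04620 and AT3G58060), the genes at the edge of the threshold and the neighbouring genes fall outside this rule and were named after their values were seen. The alternatives were a second quantile normalization, median centring, leaving out the dimmest 30% of probe sets, only the compared arrays, the replicate number as a block, an intensity trend with robust prior, and each array left out in turn. Likeness within groups, and likeness without TiO2 replicate 3, were added after the data were seen.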

Additional observations from a re-analysis of the deposited data

Results flagged for a closer look

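The genes looked at were the 8 other measured metal genes, the 5 measured markers and the measured neighbours of ZIP9 and MT1C. Those neighbours were AT4G33040 for ZIP9, and AT1G07590 and AT1G07615 for MT1C. The lists were chosen with earlier results of these data known, so the count that follows is a description only. For 4 of these genes the ceria difference minus the titania difference passed limma's test, where 8.06% of all probe sets did. The genes most like ZIP9 or MT1C were found through the same arrays and were not tested for it. It was 1.15 ± 0.16 log2 for MTP11 (adjusted p = 0.000305), which fell in titania. It was 1.37 ± 0.17 for the root hair expansin EXPA18 (adjusted p = 0.000117) and −1.06 ± 0.14 for WRKY53 (adjusted p = 0.000183). It was 0.81 ± 0.13 for AT4G33040 (adjusted p = 0.000854), the second gene beyond ZIP9 on its chromosome. Each group had 3 arrays, so no array was tested for standing apart.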

How the results depend on the processing

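The ceria differences of ZIP9 and MT1C moved by less than 1 pooled SD between replicates under all 12 alternatives, within 0.84 to 0.98 and 0.52 to 0.67 log2. Those differences chose the genes on the same arrays, so their small movement adds no support. Neither gene's titania difference crossed the threshold under its 12 alternatives. With each array left out in turn these ran from −0.35 to −0.11 for ZIP9 and from −0.272 to 0.0401 for MT1C. The number of other metal genes past the threshold in titania, 2 over all arrays, was 1 or 2 with an array left out, 1 after a second quantile normalization and 1 with only the compared arrays. It was 0 in ceria under all 13 alternatives tried. A mean over probe sets, 1 of the 13, could change nothing because each gene had 1, and BZIP24 and MTPA1 dropped out with the dimmest 30%. MTP11 kept its call in titania under all 12 of its own (adjusted p 1.32e-05 to 0.00384). In titania 2407 probe sets passed in all, and 1432 with only the compared arrays. Left-out arrays also turned the sign of small differences that passed no test: BZIP24 ranged from −0.0484 to 0.103 in titania and from −0.0051 to 0.0269 in ceria, AT2G04620 from −0.0014 to 0.16 in titania, and MTPA1 from −0.0511 to 0.104 in ceria. With the replicate number as a block, the titania difference of ZIP9 had an adjusted p of 0.350 and that of MT1C 0.798, 2 and 0 of the other metal genes passed in titania and ceria, and 2886 and 647 of all probe sets did. The numbers share no stated origin, and deviations of same-numbered arrays correlated at 0.0022 to 0.302, not all above 0.1, and not every array correlated best with its own number, so the block is not read as a pairing.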

Other observations

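Of the 4 protein-coding genes nearest to ZIP9 on its chromosome only AT4G33040 had a probe set of its own, and it fell by 0.61 log2 in titania (limma adjusted p = 0.000449) and differed by 0.21 ± 0.09 in ceria (limma adjusted p = 0.454). Of the 4 nearest to MT1C, AT1G07590 differed by −0.07 ± 0.10 in ceria (limma adjusted p = 0.936) and the direct neighbour AT1G07615 by −0.13 ± 0.09 (limma adjusted p = 0.788). Neither differed past the threshold in titania, at 0.23 and −0.11 log2 (limma adjusted p = 0.185 and 0.580). These neighbours were looked up after the values of ZIP9 and MT1C were seen.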
